A study of Homo sapiens with 18 samples.

Results

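This account covers 2908 short stretches of chromatin that carry monoubiquitinated histone H2A (H2Aub1) in the interior of the autosomes of the Ewing sarcoma line A673, an established tumour cell line, and that hold neither RING1B nor EWSR1-FLI1 peaks. They were chosen from the deposited peak lists. Peaks of both H2Aub1 replicates were merged where they shared at least 1 bp, which gave 28121 regions, and 6408 of these held a peak of each replicate and are called reproducible. Of the 6408, 6067 were autosomal, 5324 of those were 5 kb or shorter, and 3284 of those had their centre over 10 Mb away from either end of the chromosome. Dropping 335 that shared a base with a RING1B peak of either replicate, and then 41 that shared one with an EWSR1-FLI1 peak, left the 2908 regions, which are called members below. Membership was thus set by peak calls, widths and positions in these same lists, so those properties describe the choice and were not tested.

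The peak lists of 5 chromatin immunoprecipitation sequencing (ChIP-seq) samples were used out of 18 in the series: H2Aub1 (2 replicates), RING1B (2 replicates) and EWSR1-FLI1 (1 sample, no replicate). The labels name A673 and no treatment for all 5, so every value stands for 1 cell line. The 13 other samples, among them inputs and the RING1B knockdown, were not analysed here. Nothing in the labels says whether the replicates were grown separately, so their spread may be technical only. H2Aub1 replicate 1 held 26423 peaks and replicate 2 held 10268, RING1B replicates 1 and 2 held 2573 and 3945, and EWSR1-FLI1 held 2145. The lists give no read counts, so the depth of each sample is unknown, and 95% Wilson intervals on shares cover counting error over regions only. Neighbouring regions are not independent and the design offers no test over samples here, so differences between classes of regions are given as descriptions.

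H2Aub1 is placed on histone H2A by Polycomb repressive complex 1 (PRC1), whose catalytic subunit is RING1B or its paralogue RING1A. Canonical PRC1 is brought to chromatin through its CBX subunits, which read trimethylated histone H3 lysine 27, while variant PRC1 complexes with RYBP or YAF2 deposit much of the mark and reach chromatin in other ways. The mark is known both as sharp enrichment over repressed developmental genes and as a broad, low layer across the genome. EWSR1-FLI1 is the fusion of EWSR1 with the ETS factor FLI1 that drives Ewing sarcoma.

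The members were mostly single, modest peaks seen once in each replicate. Exactly 1 peak of each replicate made up 2503 of the 2908 members (86.1%, 84.8 to 87.3%), beside 77.7% of all 6067 reproducible autosomal regions. The share was 85.4% (81.2 to 88.8%) for narrow interior regions with RING1B and 83.5% (81.8 to 85.1%) for narrow regions near chromosome ends, so it was much alike in all narrow classes. The merged regions ranged from 612 to 4990 bp, with a median of 1983 bp and quartiles of 1443 and 2809 bp. The highest-scoring peak of a member was wider in replicate 1, with a median of 1757 bp, than in replicate 2, with a median of 1156 bp, and it was wider in replicate 1 at 2350 members (80.8%, 79.3 to 82.2%). Peak centres of both replicates lay a median of 276 bp apart, with quartiles of 117 and 555 bp.

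The authors' score, a value per peak on an unstated scale, was used only to rank peaks within a list. In replicate 1 the members' scores ranged from 50.05 to 1112.06 with a median of 165, and in replicate 2 from 50.02 to 485.2 with a median of 83.0. The members' best peaks sat at a median of the 79.9th percentile of the whole replicate 1 list, but only at the 54.0th percentile of the shorter replicate 2 list. Members were thus well above the middle of the longer list and near the middle of the shorter one. Among the 6408 reproducible regions their mean percentile over both replicates had a median of 41.5. It was 43.8 for the 1931 equally narrow regions that lie within 10 Mb of a chromosome end. For the 335 narrow interior regions with RING1B it was 56.2. It was 88.0 for the 530 regions over 5 kb that lack RING1B and EWSR1-FLI1. Score rose with width within a replicate, so the 5 kb limit partly sets these percentiles. The members' median was 35.4 with a 3 kb limit and 44.7 with a 10 kb limit.

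The replicates ranked the members only moderately alike. Across the 2908 members the scores of replicates 1 and 2 had a Pearson r of 0.598 and a Spearman rho of 0.491 (r = 0.6003 without the 2 members farthest from the median). Both lists cut off near a score of 50, which limits these values, and members are not independent replicates. Widths of the top peaks in both replicates had r = 0.507 and rho = 0.469. Within a replicate, score and width rose together, with rho = 0.856 in replicate 1 and 0.771 in replicate 2. At 792 members (27.2%, 25.6 to 28.9%) both replicates placed the score at or above the 50th percentile of the reproducible regions, whereas 632 members (21.7%, 20.3 to 23.3%) scored under 100 in both.

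**Figure D1:**
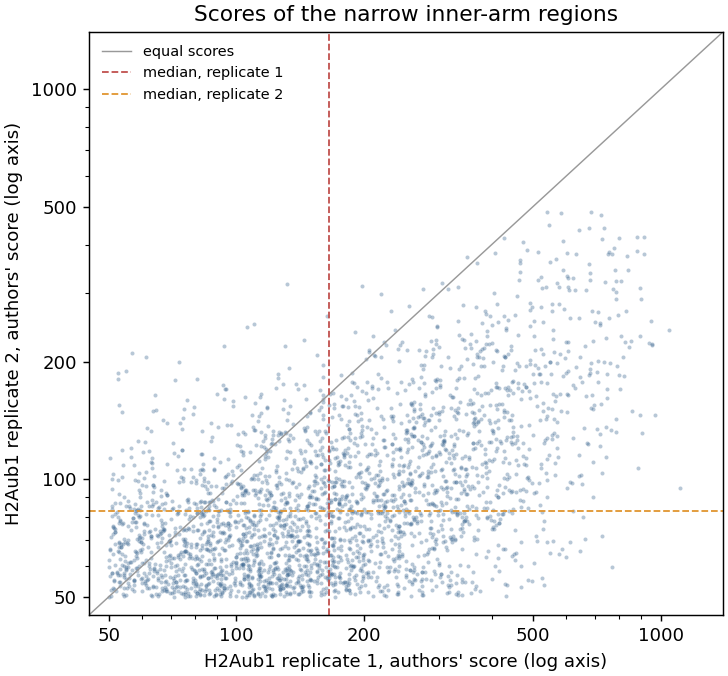
Authors' score of each of the 2908 members in H2Aub1 replicate 1 (x axis) and replicate 2 (y axis), both on log axes; each point is a member and dashed lines are the medians, 165 and 83.0. Most points lie below the grey line of equal scores (replicate 1 higher at 2477 members), and both clouds end near the lowest score of the lists.

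The 10 members with the highest mean percentile lay on 10 different chromosomes and were all long for this class, between 3544 and 4979 bp. Their scores ran from 725 to 913 in replicate 1 and from 344 to 477 in replicate 2. The first was on chromosome 10 (99788034 to 99792039 in hg19, band q24.2), with scores of 912.01 and 417.07. Next came members on chromosome 14 (77491611 to 77495154, scores 881.84 and 418.38) and chromosome 19 (34111309 to 34115353, 913.49 and 377.94). Then followed chromosome 6 (37661147 to 37665586) and chromosome 1 (26369624 to 26374178). The other five were on chromosome 2 (97193014 to 97197992), chromosome 7 (21946751 to 21950686), chromosome 4 (20253581 to 20257378), chromosome 17 (10657327 to 10662140) and chromosome 20 (46411880 to 46415639). These high-scoring members differed widely in their surroundings. Of the 10, 6 had another reproducible H2Aub1 region within 50 kb and 4 had a RING1B peak within 100 kb. The one on chromosome 4 had its nearest reproducible H2Aub1 region 4091 kb away and its nearest RING1B peak 258 kb away, and the one on chromosome 7 lay 51 bp from a RING1B peak. An hg19 gene annotation or genome was not used here, so members are given by position and cytogenetic band, without gene names or sequence.

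Many members stood in clusters, and much of that clustering was on the scale of a few kilobases. Another reproducible H2Aub1 region lay within 50 kb of 1734 members (59.6%, 57.8 to 61.4%), beside 70.9% over all 6067 reproducible autosomal regions, so the members' share was below that of the whole set they belong to. In the interior alone, 62.6% (61.0 to 64.1%) of all 3750 reproducible regions had one, which was close to the members' share. Members make up 2908 of these 3750, so the likeness is largely set by make-up. Among the narrow regions near chromosome ends the share was 83.5% (81.8 to 85.1%), and among the wide regions 85.3% (82.0 to 88.0%), or 79.8% (74.9 to 84.0%) for the 297 wide regions of the interior. The gap to the nearest reproducible region had a median of 18.4 kb and quartiles of 1.17 and 184 kb. Of the 1734 members with a neighbour, 686 (39.6%) had it within 1 kb and 1129 (65.1%) within 5 kb. Part of the clustering thus depended on how finely the peaks were divided. When reproducible regions less than 1 kb apart were joined first, 50.6% of the members still had a neighbour within 50 kb.

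The kinds of region beside a member followed the make-up of the interior, where 2908 of 3750 reproducible regions (77.5%) are members. The nearest reproducible region was another member for 1356 of the 1734 (78.2%), a wide region without RING1B or EWSR1-FLI1 for 151 (8.71%) and a narrow region with RING1B for 122 (7.04%). For the other 105 it was a region of another kind. Counting every H2Aub1 region, single-replicate ones included, 1552 members (53.4%, 51.6 to 55.2%) had another within 1 kb and 2518 (86.6%) within 50 kb. A region over 5 kb lay within 50 kb of 564 members (19.4%, 18.0 to 20.9%) and of 30.6% (28.6 to 32.7%) of the narrow regions near chromosome ends.

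Joining members across gaps of 50 kb or less gave 1868 groups, of which 1324 held a single member. Such a lone member has no other member within 50 kb, but an H2Aub1 region that is not a member can lie that close. The 544 clusters of 2 or more held 1584 members (54.5%), and the 63 clusters of 5 or more held 428 (14.7%, 13.5 to 16.1%). The median span was 16.4 kb for clusters of 2 or more and 80.7 kb for those of 5 or more. Members of the big clusters were somewhat wider and nearer to other features than lone members. Their median width was 2247 bp against 1956 bp, and their median scores were 180 against 164 in replicate 1 and 86.4 against 82.4 in replicate 2. A RING1B peak lay within 100 kb of 63.1% of them against 36.3% of the lone members, and a region over 5 kb lay a median of 24.0 kb away against 1624 kb. In a long cluster several members can share the same RING1B peak, so these shares do not count separate sites.

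**Figure D2:**
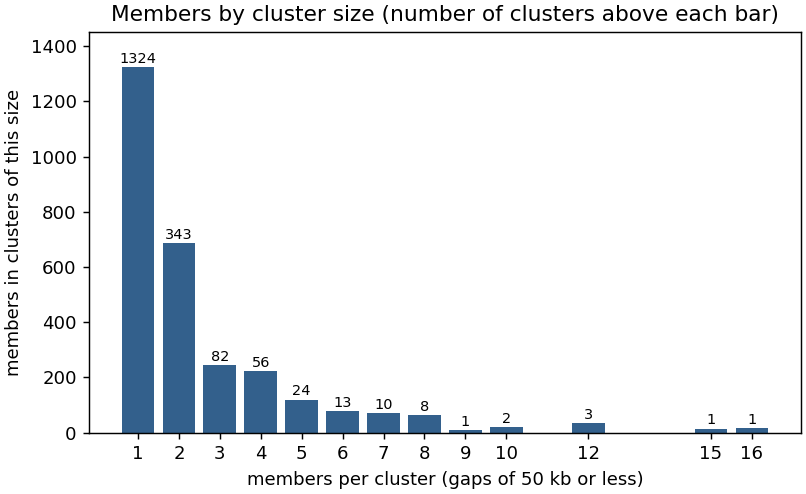
Number of members (y axis) in clusters of each size (x axis), where members with gaps of 50 kb or less are joined; numbers above the bars count clusters. Lone members form the tallest bar (1324), and the largest cluster holds 16.

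The cluster with the most members lay on chromosome 17 and began in p13.1 (10631896 to 10748681), where 16 members spanned 117 kb. Its members scored from 68.1 to 733.92 in replicate 1 and from 52.08 to 439.81 in replicate 2. Peaks of replicate 1 covered 62.3% of the span and those of replicate 2 covered 34.5%, so peaks of replicate 1 took up most of the stretch. It held 1 RING1B peak, seen in replicate 1 alone, and 2 EWSR1-FLI1 peaks. Many members around 1 RING1B peak and 1 EWSR1-FLI1 peak were also seen on chromosome 1 at p35.2 (31260932 to 31386103, 15 members), where 6 further regions exceeded 5 kb, and on chromosome 2 at p23.3 (25257439 to 25392988, 12 members). In the chromosome 1 and chromosome 2 clusters the RING1B peak was seen in replicate 2 alone.

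The most compact of the 5 largest clusters lay on chromosome 10 at p13 (14396336 to 14448171), where 12 members took up 55.6% of 51.8 kb. Replicates 1 and 2 covered 67.8% and 53.9% of that span. It held 4 RING1B peaks (3 of replicate 1 and 1 of replicate 2), no region over 5 kb and 0 EWSR1-FLI1 peaks. The replicate 2 RING1B peak overlapped a replicate 1 peak, so the 4 peaks are not separate sites. The cluster on chromosome 1 at p36.22 (11675763 to 11769798, 12 members) was the one of the 5 with neither protein, its nearest RING1B peak lying 198 kb away. There replicates 1 and 2 covered 29.4% and 19.7% of the 94.0 kb span. Of the 5 largest clusters, 4 enclosed a RING1B peak and 3 an EWSR1-FLI1 peak, although no member touches one by definition. Only the chromosome 10 cluster held overlapping RING1B peaks of both replicates. The share among other stretches of like length is not given here, so these counts describe the 5 clusters only.

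**Figure D3:**
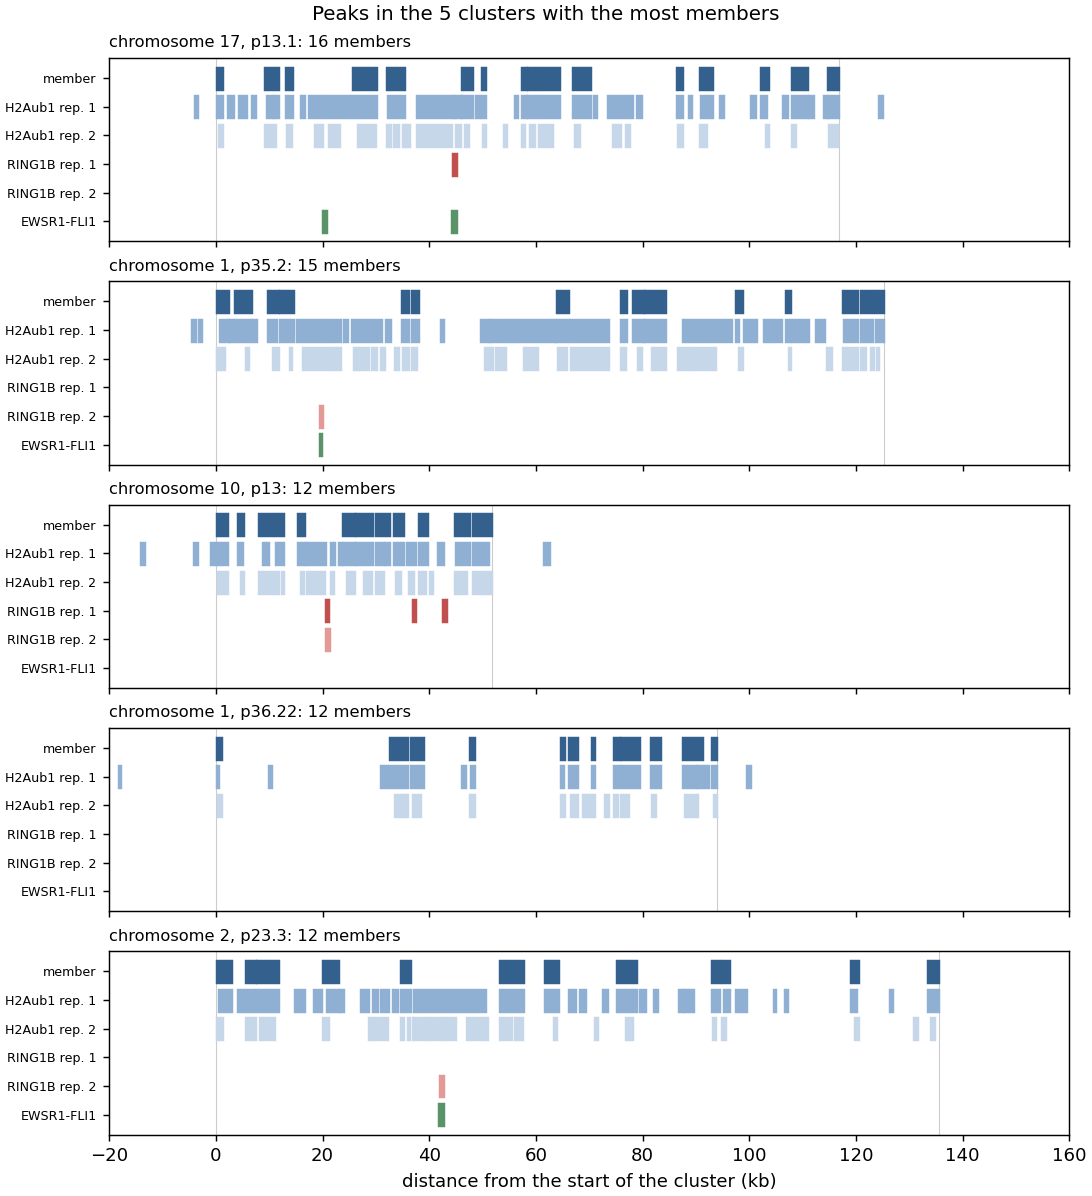
Peaks in the 5 clusters with the most members, drawn to scale in kb from the start of each cluster (x axis), with 1 row each for members, H2Aub1 replicates, RING1B replicates and EWSR1-FLI1; grey lines mark the cluster's ends. H2Aub1 peaks outside the member row are single-replicate peaks or parts of regions that the width, RING1B or EWSR1-FLI1 criterion left out, and RING1B peaks appear in 4 of the 5 panels.

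Few members had RING1B within 1 kb, and few lay over 1 Mb from it. Regions sharing a base with RING1B had been dropped by the rule, also from the comparison set below, so the scarcity of adjacent RING1B is partly set by choice. The part of RING1B list length in the long gaps was not tested. The gap from a member to the nearest RING1B peak of either replicate had a median of 131 kb and quartiles of 33.0 and 329 kb, and it ranged from 1 bp to 3791 kb. A gap of up to 1 kb was found for 109 members (3.75%, 3.12 to 4.50%), of 1 to 10 kb for 312 (10.7%), of 10 to 100 kb for 852 (29.3%), of 100 kb to 1 Mb for 1521 (52.3%) and of over 1 Mb for 114 (3.92%). In all, 1273 members (43.8%, 42.0 to 45.6%) had RING1B within 100 kb. The share was close to that, 41.3%, over all 5369 reproducible autosomal H2Aub1 regions without RING1B or EWSR1-FLI1, which include the 2908 members. These distances depended strongly on which RING1B list was used. The median was 377 kb to replicate 1 peaks, 164 kb to replicate 2 peaks and 654 kb to RING1B regions found in both replicates, and 19.2% of members had a region of the last kind within 100 kb.

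Within 10 kb of RING1B, members resembled the wide regions of the interior and stood above regions near chromosome ends. A RING1B peak lay within 10 kb of 421 members (14.5%, 13.2 to 15.8%), of 132 of the 1931 narrow regions near chromosome ends (6.84%, 5.79 to 8.05%) and of 57 of the 530 wide regions (10.8%, 8.39 to 13.7%), beside 11.4% over the 5369 regions without either protein. The 530 wide regions include many near chromosome ends. Of all 3205 interior regions without either protein 14.6% had RING1B within 10 kb, but 2908 of these are members, so that share largely repeats their own. Among the 297 wide regions in the interior 46 (15.5%, 11.8 to 20.04%) had RING1B within 10 kb, a share like that of the members. Within 1 kb the likeness was weaker, with 3.75% (3.12 to 4.50%) of members and 1.35% (0.525 to 3.41%) of the 297 wide interior regions. The share within 1 kb was 1.61% (1.13 to 2.27%) for narrow regions near chromosome ends, beside 2.68% over the 5369 regions. Median gaps were 131 kb for members, 164 kb for narrow regions near chromosome ends and 147 kb for all wide regions. Narrow interior regions found in a single H2Aub1 replicate, chosen otherwise by the same criteria, had RING1B within 10 kb at 1140 of 10498 (10.9%, 10.3 to 11.5%) for replicate 1 and at 135 of 1281 (10.5%, 8.97 to 12.3%) for replicate 2. Their median gaps were 149 and 146 kb.

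**Figure D4:**
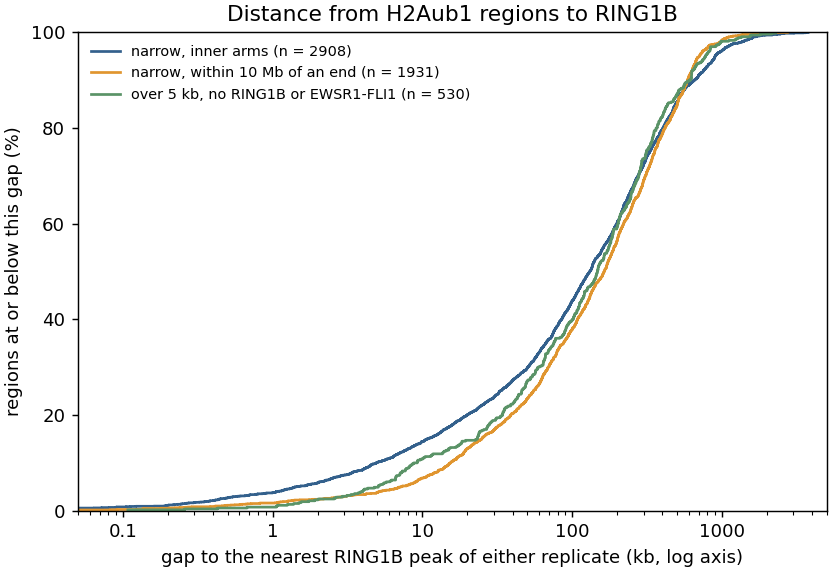
Share of regions (y axis, %) whose nearest RING1B peak of either replicate lies within the gap on the x axis (kb, log axis), for members, narrow regions within 10 Mb of a chromosome end and regions over 5 kb without RING1B or EWSR1-FLI1. The member curve lies above the others at 10 kb (14.5%, against 6.84% and 10.8%), where the wide class includes regions near chromosome ends, and the medians are 131, 164 and 147 kb.

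The strength and width of a member were almost unrelated to its distance from RING1B. Across the 2908 members the mean score percentile and the log10 gap had r = 0.0538 and rho = 0.0536, a description over regions that share libraries. From the nearest to the farthest of the 5 distance classes above, the median score was 156, 165, 160, 167 and 198 in replicate 1, and 76.2, 79.1, 82.6, 84.1 and 85.4 in replicate 2. Median widths stayed between 1915 and 2126 bp. What did vary was company. Another reproducible H2Aub1 region within 50 kb was found for 61.5% of members up to 1 kb from RING1B, 82.1% at 1 to 10 kb, 69.5% at 10 to 100 kb, 51.2% at 100 kb to 1 Mb and 35.1% beyond 1 Mb. At short gaps this neighbour can be H2Aub1 on the nearest RING1B region itself, so the measure partly sets these shares. That RING1B region carried H2Aub1 for 30.3, 58.0, 37.8, 12.4 and 13.2% of members in the same order of classes. The share of neighbours apart from such regions was not tested.

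Most RING1B regions nearest to members were called in 1 replicate, as were most RING1B regions of the interior. Merging both RING1B lists gave 4050 regions in the interior of the autosomes, of which 34.0% were reproducible and 2674 were called in 1 replicate. Of the 4050, 31.0% carried EWSR1-FLI1 and 12.6% carried a reproducible H2Aub1 region. The members' nearest neighbours were 1275 distinct RING1B regions, of which 371 (29.1%) were reproducible, 321 (25.2%) carried EWSR1-FLI1 and 262 (20.5%) carried H2Aub1. Of the rest, 675 were seen in replicate 2 alone and 229 in replicate 1 alone. The replicate 2 list is the longer one, and the same split of the 4050 regions is not given here. The make-up did not shift steadily with distance. For the 109 members up to 1 kb away the nearest were 106 distinct RING1B regions, of which 31 (29.2%) were reproducible and 33 (31.1%) carried H2Aub1. For the 312 members at 1 to 10 kb they were 235, of which 98 (41.7%) were reproducible and 126 (53.6%) carried H2Aub1. In both classes most were called in 1 replicate, as over all 4050 interior regions, where 34.0% were reproducible.

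Seen from RING1B, sites that bear the mark had the shortest gaps to members among the sets compared. Such sites were chosen by overlap with reproducible H2Aub1, and members come from the same clustered H2Aub1 set, so the choice partly sets these gaps. Another reproducible H2Aub1 region lay within 10 kb of 53.7% of narrow interior regions with RING1B. Over all 6067 reproducible autosomal regions the share was 54.1%. Of the 509 interior RING1B regions with reproducible H2Aub1, 172 (33.8%) had a member within 10 kb, with a median gap of 33.6 kb. Of all 4050 interior RING1B regions 373 (9.21%) had one, with a median gap of 343 kb, and of the 1256 with EWSR1-FLI1 122 (9.71%) had one, with a median gap of 465 kb.

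The members closest to RING1B flanked it almost base to base. The 5 closest had gaps of 1 bp on chromosome 10 (115993248 to 115995106) and chromosome 13 (30002393 to 30003474), 10 bp and 16 bp on chromosome 7 (130416254 to 130418962 and 27154479 to 27158280) and 17 bp on chromosome 13 (80817672 to 80819164). One of these RING1B peaks was broad and scored high: it spanned 5070 bp on chromosome 7 (130418973 to 130424042) with a score of 1379.11, and the member beside it scored 262.43 and 157.86. RING1B peaks beside the other four were between 761 and 1253 bp wide and scored from 60.77 to 102.97. Requiring a shared base thus leaves among the members some regions that abut RING1B.

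The members farthest from RING1B lay in large intervals without any peak of that protein. On chromosome 5 at p15.2, 3 members (10409012 to 10410641, 10562196 to 10564103 and 10564556 to 10566139) were 3635, 3788 and 3791 kb from the nearest RING1B peak. Their scores were 98.17, 198.03 and 294.25 in replicate 1 and 153.88, 168.78 and 69.39 in replicate 2. The medians of all members were 165 and 83.0, so the first fell below the median in replicate 1 and the last in replicate 2. On chromosome 9 at q31.1, 2 members (103791212 to 103792415 and 104248335 to 104249799) were 3044 and 3501 kb away, and they scored 131.62 and 125.95 in replicate 1 and 141.6 and 80.44 in replicate 2.

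EWSR1-FLI1 peaks were farther from the members than RING1B peaks of either replicate, but nearer than RING1B regions found in both replicates. The gap to the nearest EWSR1-FLI1 peak had a median of 429 kb and quartiles of 108 and 1145 kb. For RING1B the median was 377 kb to replicate 1 peaks, 164 kb to replicate 2 peaks and 654 kb to regions found in both. In all, 2261 members (77.8%, 76.2 to 79.2%) lay closer to a RING1B peak of either replicate than to an EWSR1-FLI1 peak. The RING1B lists hold 2573 and 3945 peaks and the EWSR1-FLI1 list 2145, and the part of list length in this was not tested. An EWSR1-FLI1 peak lay within 10 kb of 246 members (8.46%, 7.50 to 9.53%), beside 8.27% over the 3205 interior regions without either protein. Of these 3205 regions 2908 are members, so that share largely repeats their own. The share was 2.69% (2.06 to 3.51%) for the narrow regions near chromosome ends and 4.53% (3.06 to 6.65%) for the wide regions. Among the 297 wide ones in the interior it was 6.397% (4.13 to 9.77%). Over all 6067 reproducible autosomal regions, overlapping ones included, it was 9.38%, and 32.5% of the narrow interior regions with RING1B had an EWSR1-FLI1 peak that close.

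Along the chromosomes, members were dense in light Giemsa bands, the part of the genome known to be gene-rich and early replicating, and sparse in the darkest ones. Bands came from a table of hg19 in which gneg is unstained and gpos25 to gpos100 are increasingly dark. Members numbered 1.79 per Mb of interior arm in gneg bands and 2.35 per Mb in gpos25 bands, and then 1.09, 0.708 and 0.329 per Mb in gpos50, gpos75 and gpos100 bands. Gneg bands held 1751 members (60.2%, 58.4 to 62.0%) on 39.99% of the interior length, beside 69.0% over all 6067 reproducible autosomal H2Aub1 regions, which include the chromosome ends. Over the 3750 in the interior, most of them members, the share was also 60.2%. On each of the 20 autosomes with both kinds of band in the interior, members per Mb were higher in gneg than in gpos75 and gpos100 bands together.

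The light bands held a smaller share of the proteins' binding than of the members. Gneg bands had 46.4% of the 4050 interior RING1B regions, above their 39.99% of the length. They had 39.9% of the 1828 interior EWSR1-FLI1 peaks, equal to the bands' share of the length within 0.1 percentage points. In gpos100 bands, 18.6% of the length, the shares were 5.12% for members, 16.3% for RING1B and 20.1% for EWSR1-FLI1. Narrow interior H2Aub1 regions found in a single replicate were placed much like the members, with 60.6% (replicate 1) and 62.1% (replicate 2) in gneg bands. Base composition and mappability also differ between band classes, and their part in these shares was not tested.

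**Figure D5:**
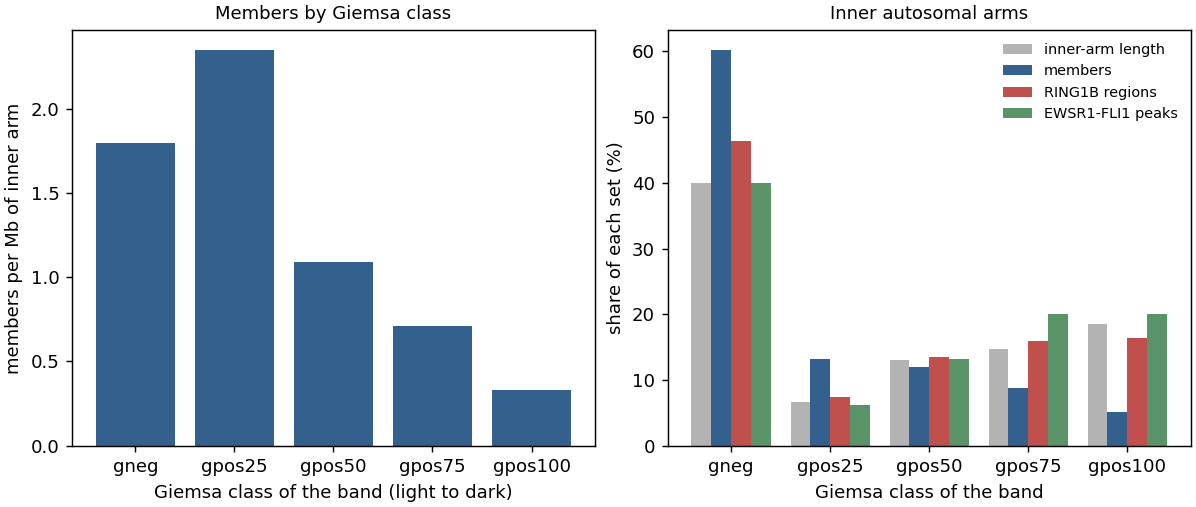
Left, members per Mb of interior autosomal arm (y axis) by Giemsa class (x axis, light to dark). Right, share (%) of interior length, members, RING1B regions and EWSR1-FLI1 peaks in each class; members exceed the share of length in gneg and gpos25 (60.2% on 39.99% and 13.2% on 6.68%) and fall below it in the darker classes.

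The members in the darkest bands were somewhat narrower, scored lower in replicate 1 and had fewer close neighbours than those in gneg bands. Their replicate 2 scores and gaps to RING1B were much alike. The 149 members in gpos100 bands had a median width of 1811 bp and median scores of 141 and 81.3, against 1999 bp, 166 and 83.8 for the 1751 in gneg bands. Their median gap to RING1B was 119 kb, against 124 kb. Another reproducible H2Aub1 region within 50 kb was present for 41.6% in gpos100 bands and 62.0% in gneg bands.

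Chromosomes differed up to 8.83-fold in member density. It was highest on chromosome 19 (109 members, 2.79 per Mb of interior), chromosome 22 (2.33) and chromosome 20 (2.18), and lowest on chromosome 4 (54 members, 0.316 per Mb), chromosome 21 (0.427) and chromosome 13 (0.536). Chromosomes 1 and 2 held the most members, 431 and 292. Over the 22 autosomes, members per Mb and protein-coding genes per Mb had r = 0.719 and rho = 0.731 (r = 0.645 without the 2 chromosomes farthest from the median). Genes were counted in RefSeq for GRCh38 over whole chromosomes, and chromosomes differ also in base composition. RING1B regions per Mb tracked members per Mb less closely, with r = 0.272 and rho = 0.289 (r = 0.111 without the 2 farthest). Median scores of chromosomes ran from 129 (chromosome 21, 12 members) to 195 (chromosome 16) in replicate 1. In replicate 2 they ran from 69.1 (chromosome 13) to 98.4 (chromosome 16).

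The band with the most members was p11.2 of chromosome 11, with 46 members between 43500001 and 48800000, and these differed from the rest in shape. Their median width was 3443 bp against 1967 bp for the other 2862 members, although their scores were lower, 108 against 167 in replicate 1 and 66.0 against 83.3 in replicate 2. The top peak was therefore 24.7 bp wide per unit of score in replicate 1 against 10.1, and 39.3 against 12.9 in replicate 2. Both replicates showed this stretch of wide, low peaks. The band was singled out after its values were seen.

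Regions lay close on both sides of the width and end limits. The 5 widest members measured 4979 to 4990 bp and the 5 interior regions just over the limit 5010 to 5025 bp. The latter scored 96.74 to 697.33 in replicate 1, all below the former at 725.43 to 849.71. The 5 narrowest members measured 612 to 728 bp, with scores of 50.05 to 104.24 in replicate 1. The 5 members closest to the 10 Mb limit had centres 10.02 to 10.09 Mb from a chromosome end, and the 5 regions just inside the outer zone had theirs 9.90 to 9.98 Mb away.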

How the data were processed

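A peak list of each of 5 samples was used. The deposited lists give position and a score per peak set by the authors, whose scale is not stated. Bowtie and hg19 are named in the submitters' processing notes (and mm9 for the RING1B and H2Aub1 samples, with no role stated). Peak names begin with MACS, per the deposited files. Versions, filters and the use of input are not given in the sources used here. Positions are hg19, written 1-based. Gaps count the bases between edges.

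Merging, gaps and clusters were computed with Python 3.11.15, numpy 2.4.6 and pandas 2.3.3, and Wilson intervals with scipy 1.17.1. The functions were tested on simulated data. Chromosome lengths came from GenomeInfoDb 1.38.1 and bands from circlize 0.4.16, whose band table ends at the hg19 length on all 22 autosomes.

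Members, classes and thresholds were chosen with earlier results of these data known. Named regions are the 10 highest by mean score percentile, the 5 clusters with the most members, the 5 members closest to and farthest from RING1B and 5 on each side of the width and end limits. No hg19 genome or annotation was used, so the planned gene and sequence features were not computed. Alternatives are in the closing section.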

Additional observations from a re-analysis of the deposited data

How the results depend on the processing

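Of 69 values recomputed under 19 settings, 42 moved by less than the spread between replicates (1.5 times for the count of members). The spread is the standard deviation of 2 values, 1 per H2Aub1 replicate. For the neighbour share and the RING1B gap and share, these came from the single-list runs, which are also among the settings. For the width they were median widths of top peaks, not of merged regions, with a spread of 425 bp. The values that moved by more follow. Without H2Aub1 replicate 1 or 2, that is with a single list, 74.2 to 84.9% had a neighbour within 50 kb and the median width was 1080 to 1083 bp. Leaving out each H2Aub1 or RING1B replicate in turn gave 2963 to 13761 members, a median gap to RING1B of 117 to 368 kb and 26.9 to 46.4% of members with RING1B within 100 kb. The count of 13761 and that of 5320 came without H2Aub1 replicates 2 and 1, where a peak in 1 list sufficed, and the 368 kb came without RING1B replicate 2. Against reproducible RING1B regions these were 654 kb and 19.2%. In the highest-scoring 50% of each H2Aub1 list there were 1446 members, with 45.5% having a neighbour, a median width of 2478 bp and a median percentile of 39.5. That percentile was 35.4 with a 3 kb limit, 44.7 with a 10 kb limit and 41.8 without chromosome 11 from 40 to 50 Mb (chosen after seeing the data). The neighbour share was 44.7% within 10 kb, 68.1% within 100 kb and 50.6% after joining regions under 1 kb apart (chosen after seeing the data). RING1B lay within 50 kb of 29.8% and within 500 kb of 85.4%. The labels number the replicates of H2Aub1 and RING1B alike without saying that a number marks a shared culture. With the replicate block, pairing lists of the same number and averaging both pairs, 79.6% had a neighbour, the median gap was 261 kb and 32.9% had RING1B within 100 kb. The unknown depth of the lists limits all of these values, since a longer list shortens every gap.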

Other observations

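A small set of members stood far from all other reproducible H2Aub1. No other reproducible region lay within 1 Mb of 170 members (5.85%, 5.05 to 6.76%), beside 3.64% of all 6067 reproducible autosomal regions, 5.41% (4.73 to 6.18%) of the 3750 in the interior and 7.16% (4.86 to 10.4%) of the narrow interior regions with RING1B. The members' share was thus close to that of the interior, where 2908 of the 3750 regions are members. Their median width of 1881 bp and median scores of 164 and 84.7 were close to those of all members, and their median gap to RING1B was 276 kb. Chromosome 4 held 19 of these 170, which is 35.2% of its 54 members, and chromosome 13 held 9 of 51, while chromosome 19 had 0 among 109. On chromosome 4, 10 of 54 members (18.5%, 10.4 to 30.8%) had a reproducible neighbour within 50 kb. When single-replicate H2Aub1 regions were counted too, 45.3% of the 170 had some H2Aub1 region within 50 kb.

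Near the centromeres, 202 members (6.95%, 6.08 to 7.93%) lay within 5 Mb of a centromeric band. The share was 6.69% (5.94 to 7.54%) over all 3750 interior regions, 5.67% (3.66 to 8.69%) for the narrow ones with RING1B and 5.05% (3.08 to 8.16%) for the 297 wide ones without RING1B or EWSR1-FLI1, so the intervals overlapped.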
